A study of Rattus norvegicus with 10 samples.

Results

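Transcripts of the brain endothelium and its barrier were examined in 10 RNA sequencing libraries of the supraoptic nucleus, a paired nucleus of the rat hypothalamus. The members were 10 genes chosen by name: Cldn5, Ocln, Mfsd2a, Slc2a1, Slco1a4, Abcb1a, Flt1, Tek, Vwf and Pecam1. Of these, 8 were found by name among the 32623 genes of the deposited table, and Pecam1 and Abcb1a were not analysed here. The shControl group held 5 nuclei of male Sprague Dawley rats that had received an adeno-associated virus with a non-targeting short hairpin RNA. The shOpn3 group held 5 nuclei of male Sprague Dawley rats that had received an adeno-associated virus with a hairpin against Opn3, which encodes the light-sensitive receptor opsin 3. Each rat had received the Opn3 hairpin on 1 side and the control hairpin on the other, so that every sample, controls included, carried a virus and an injection, and no uninjected nucleus was measured. The nuclei were punched out of cryostat sections 2 weeks after the virus and extracted singly. The rats' age, and the promoter and cell type in which the hairpin was made, were not given in the sources used here. Samples are named by the replicate numbers 1 to 5 of their labels. Each rat gave a nucleus to both groups, but whether samples with equal numbers came from 1 rat is not stated.

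The capillaries of the brain are lined by endothelial cells that are sealed to each other by tight junctions and that carry few transport vesicles. What crosses this blood-brain barrier is therefore set largely by membrane transporters, which admit glucose, lipids and amino acids and export drugs. The endothelial cells keep these properties through signals from pericytes, astrocytes and neurons, among them vascular endothelial growth factor (VEGF), angiopoietins and WNT ligands. The supraoptic nucleus has one of the densest capillary beds of the brain.

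Of the 8 members, Mfsd2a fell in shOpn3, to 47.5% of its control mean, and the other 7 did not pass the test in the comparison of the groups (limma on log2(normalized count + 1), Benjamini-Hochberg adjusted p under 0.05 over 15597 genes). A normalized count is a read count divided by a size factor of the sample. Over all genes tested 18.8% were called, 10.4% higher and 8.48% lower, so that 1 call among 8 genes did not stand above the share in the table as a whole. The median log2 difference of the 8 members was -0.15, beside -0.019 over all genes tested. The edgeR test, which called 19.4% of genes (10.4% higher, 9.04% lower), and DESeq2, which called 21.3% (11.4% higher, 9.89% lower), likewise called Mfsd2a alone among the members. All 5 same-numbered comparisons went 1 way for 4 members, as for 39.4% of all genes tested. Once same-numbered samples were blocked, limma called 30.3% of all genes and, besides Mfsd2a, Ocln and Slco1a4, both higher in shOpn3. The edgeR test with the block called 30.6% of all genes, and Mfsd2a and Ocln among the members. With samples weighted by quality limma called 32.5%, and Mfsd2a and Flt1.

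Sequencing depth lay between 33158341 and 39958578 reads per sample, and the lowest value of any member in any sample was 221 normalized counts. Opn3 itself fell to 26.7% of its control mean (limma log2 difference -1.82, SE 0.320, adjusted p = 0.00226) and was lower in 5 of 5 same-numbered comparisons, although shControl replicate 5, at 261, lay below shOpn3 replicate 1, at 289.7. Endothelial identity was checked with 23 other endothelial genes, of which 22 had a mean of at least 10 normalized counts and Robo4 was at 0 in every sample. The neuronal genes, which include the hormones of the nucleus, were present in every sample but moved with the groups: 4 of 8 fell and 1 rose. Their summed level ran from 113945 to 240053 normalized counts in shControl and from 81693 to 122659 in shOpn3, with Avp (vasopressin) at 21.4% and Oxt (oxytocin) at 20.6% of the control mean. Avp and Oxt, with control means of 56039 and 26947 normalized counts, made up much of the control sum. Of the others, Elavl4 and Uchl1 fell (log2 differences -0.57 and -0.49) and Rbfox3 rose (0.62). Snap25 (0.41), Syt1 (0.37) and Tubb3 (-0.38) were not called by limma, though Tubb3 was called with the block. The part of neurons in the results for the members was not tested.

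**Figure D1:**
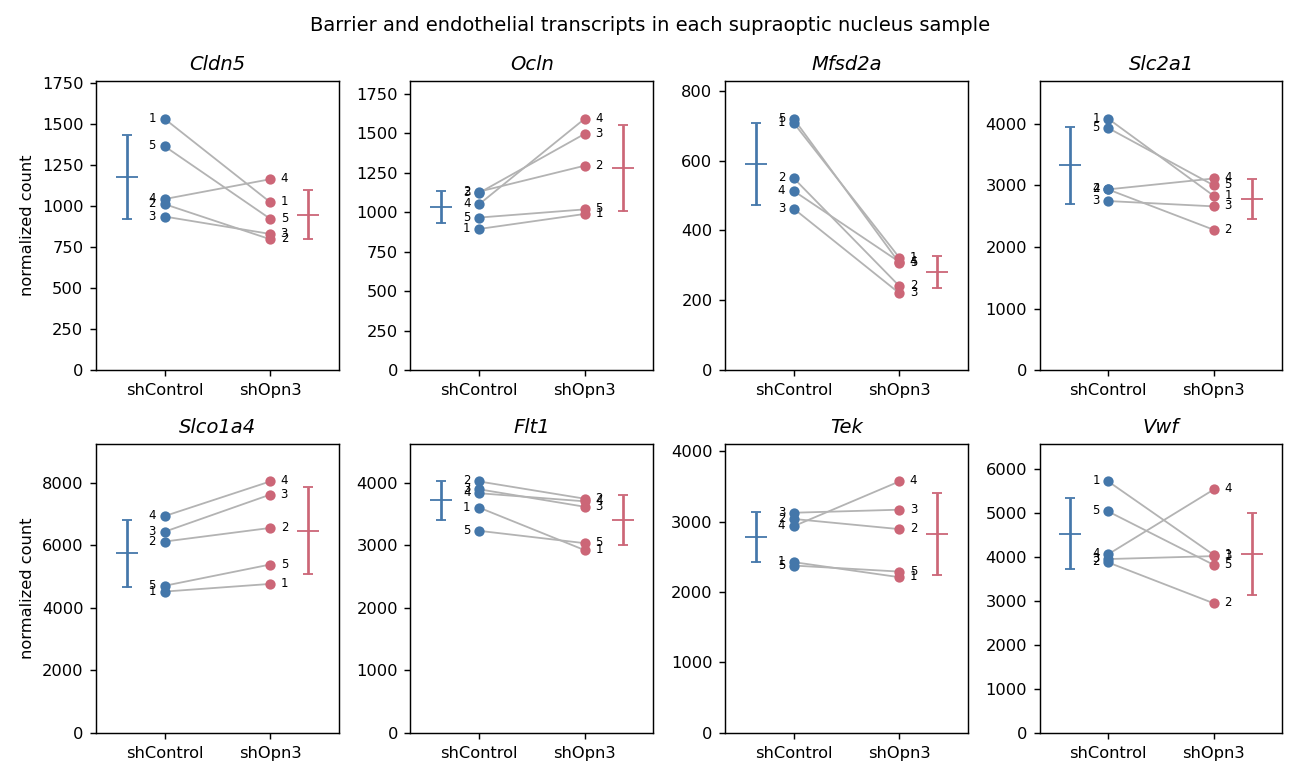
Normalized counts of the 8 members in each sample, with shControl on the left and shOpn3 on the right of each panel and the axis starting at 0. Points are samples labelled with their replicate number, grey lines join equal numbers, and the outer bars give the mean and SD of 5 samples. The groups are separate for Mfsd2a, at 462 to 719 against 221 to 322, and overlap for the other 7 members.

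Promoter sequences are shown for 4 members because they stood in opposite orders among the shControl samples, as described further on: Cldn5 and Slc2a1 were high in the controls where Ocln and Slco1a4 were low. In shOpn3 the order was not opposite throughout, since replicate 4 was the highest sample for all 4. Each run gives the 250 bases before the start of the gene, 5′ to 3′ on the gene's strand, from RefSeq for assembly GRCr8. The deposited table names no build, so these positions are RefSeq's and not the table's. Capitals mark GGGCGG, the GC box bound by SP factors, or TATAAA, the TATA box, on either strand.
Cldn5 (chr11:95718599-95718848, minus strand): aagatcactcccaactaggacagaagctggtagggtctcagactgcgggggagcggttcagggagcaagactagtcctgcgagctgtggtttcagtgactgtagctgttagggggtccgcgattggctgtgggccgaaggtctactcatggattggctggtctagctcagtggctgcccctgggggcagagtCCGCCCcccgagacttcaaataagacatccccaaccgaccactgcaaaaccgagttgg
Slc2a1 (chr5:138002272-138002521, plus strand): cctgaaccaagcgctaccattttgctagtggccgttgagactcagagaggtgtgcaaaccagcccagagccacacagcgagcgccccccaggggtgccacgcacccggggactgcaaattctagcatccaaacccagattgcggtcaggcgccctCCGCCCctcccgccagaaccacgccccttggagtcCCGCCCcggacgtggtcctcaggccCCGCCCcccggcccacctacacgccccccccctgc
Ocln (chr2:33441199-33441448, minus strand): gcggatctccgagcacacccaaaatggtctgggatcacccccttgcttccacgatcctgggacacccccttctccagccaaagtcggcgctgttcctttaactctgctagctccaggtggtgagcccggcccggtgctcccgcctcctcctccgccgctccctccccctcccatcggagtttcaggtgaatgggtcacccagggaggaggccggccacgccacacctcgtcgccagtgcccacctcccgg
Slco1a4 (chr4:176495847-176496096, minus strand): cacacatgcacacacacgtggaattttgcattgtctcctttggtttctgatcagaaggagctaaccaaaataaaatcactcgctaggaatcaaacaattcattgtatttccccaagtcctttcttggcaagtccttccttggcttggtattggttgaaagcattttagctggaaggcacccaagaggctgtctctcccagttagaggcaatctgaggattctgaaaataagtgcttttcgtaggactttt
The GC box occurred 3 times before Slc2a1 and once before Cldn5, and 0 times before Ocln and Slco1a4. It was present in 30.5% of the 33469 promoters of the same length. The TATA box, present in 12.9% of them, was found in none of these 4 windows. The GGAA core of ETS factors, a family that includes the endothelial regulators Erg and Fli1, occurred 5 times before Slco1a4, 2 times before Ocln and 0 times before Cldn5 and Slc2a1, while 93.2% of all promoters held it at least once. None of these GC boxes overlapped a GGAA core. The share of G and C was 58.4% before Cldn5, 68.4% before Slc2a1, 66.4% before Ocln and 42.4% before Slco1a4, against a median of 51.2%. The matches did not follow the order of the samples: Flt1, whose order was that of Ocln and Slco1a4, had 3 GC boxes, 1 TATA box and 3 GGAA cores before its start. The matches are letters in these windows and no binding was measured.

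Mfsd2a (ENSRNOG00000014008) encodes the transporter that brings lysophospholipids with docosahexaenoic acid into the brain and restrains vesicle transport across the endothelium. In shControl replicates 1 to 5 it had 707, 549, 462, 513 and 719 normalized counts. In shOpn3 replicates 1 to 5 it had 322, 241, 221, 310.1 and 307 normalized counts. Every shOpn3 sample lay below every shControl sample, with the highest knock-down value under the lowest control value. The means were 590.4 ± 117 and 280.2 ± 46.1 (SD, n = 5 each).

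On the log2 scale Mfsd2a changed by -1.07 (SE 0.155, 95% interval -1.40 to -0.73, limma adjusted p = 0.000809). An exact permutation test, two-sided and without pairing, gave p = 0.00794, the smallest that 5 against 5 samples allow. The groups failed to overlap in 15.3% of all genes tested, and with shOpn3 lower in 7.23%. Falls that were called and reached at least 1 log2 unit numbered 182 among the 15597 genes (1.17%). In the authors' deposited table the log2 fold change of Mfsd2a was -1.07 (SE 0.164), and its adjusted p there was 3.31e-09. In bulk tissue, fewer cells of a type and less RNA per cell cannot be told apart.

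In same-numbered samples Mfsd2a stood at 45.6%, 43.9%, 47.7%, 60.4% and 42.7% of the control for numbers 1 to 5. It was thus lower in 5 of 5, a pattern that 20.7% of all genes tested showed, and number 4 kept the most. Blocking on the number, the limma interval narrowed to -1.28 to -0.86 (limma adjusted p = 0.000380). Opn3 was left at 40.3%, 27.9%, 18.9%, 15.3% and 55.6% in the same order, so the number with the least Opn3 left was the number with the most Mfsd2a left. These shares depend on the controls: number 5 had the lowest control, 261 normalized counts, and also the lowest shOpn3 value, 145. Any relation between the levels of the 2 genes was not tested.

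Relative to the other members, the level of Mfsd2a also differed between groups. The log2 ratio of Mfsd2a to Cldn5 was -0.99 ± 0.092 over the shControl samples and -1.76 ± 0.14 over the shOpn3 samples (mean ± SD, n = 5), a change of -0.77. The change of the ratio was -0.82 against Slc2a1, -0.90 against Vwf, -0.94 against Flt1, -1.08 against Tek, -1.23 against Slco1a4 and -1.35 against Ocln. For each of the 7 ratios the groups were separate, but Mfsd2a alone already separated them, as did 15.3% of all genes tested. The gap was small for Tek (lowest shControl value -2.755, highest shOpn3 value -2.774). It was also small for Slco1a4 (-3.80 and -3.88) and Flt1 (-3.07 and -3.18). All 7 share the Mfsd2a value and are given as a description. In shControl the ratio to Slc2a1 had an SD of 0.062, smaller than that to any other member, and the ratio to Slco1a4 had the largest, 0.55.

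Genes of other cell types also differed between the groups, some in the direction of Mfsd2a and some in the other. All 7 oligodendrocyte genes fell, and their summed level ran from 705259 to 1199210 normalized counts in shControl and from 238496 to 452517 in shOpn3, with no gene at 0. Within shControl, replicates 5 and 1 had the highest oligodendrocyte sums and also the highest Mfsd2a. The same replicates were both above the others in 32.6% of all genes tested. Among the remaining shControl samples the sum and Mfsd2a ran in opposite orders. Within shOpn3, replicates 5, 4 and 1 had the highest sums and also the highest Mfsd2a. Inside this set the order was reversed. The sums were 452517, 423047 and 333387 for replicates 5, 4 and 1, where Mfsd2a was 307, 310.1 and 322. The remaining shOpn3 samples were in opposite orders too. Like Mfsd2a, the oligodendrocyte gene Mbp, which encodes a myelin protein, was best kept in number 4, at 55.6% of its control, against 28.4% to 37.2% in the others. The summed endothelial identity genes, by contrast, ran from 19975 to 23756 in shControl and from 19362 to 27931 in shOpn3, with overlap. Number 4 also had the highest ratio to its control for all members but Slco1a4, among them Vwf (136%) and Ocln (152%). That order was thus not particular to oligodendrocyte genes, and no share over all genes is given for it. The part of oligodendrocytes in the Mfsd2a difference was not tested.

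**Figure D2:**
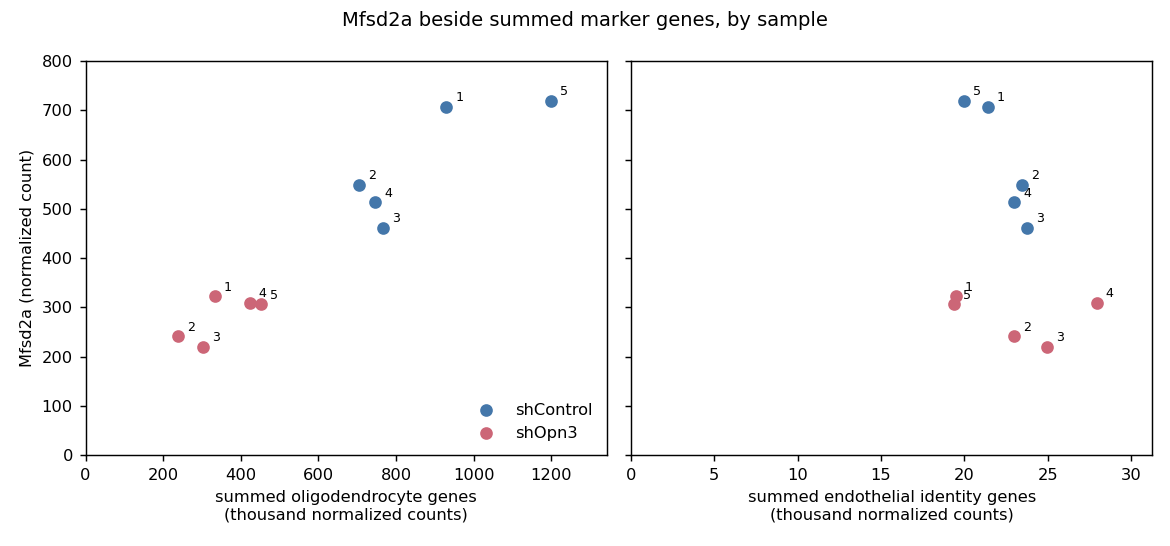
Mfsd2a in normalized counts (vertical axis) against the summed level on the horizontal axis, as normalized counts, of 7 oligodendrocyte genes (left) and of 23 endothelial identity genes (right), with 1 labelled point per sample. Both Mfsd2a and the oligodendrocyte sum are lower in every shOpn3 sample than in every shControl sample, whereas the endothelial sums of the groups overlap.

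The 2 tight junction proteins among the members lay on opposite sides of 0. Cldn5 (ENSRNOG00000045811), the claudin that seals the clefts between brain endothelial cells, had 1531, 1011, 936, 1042 and 1364 normalized counts in shControl replicates 1 to 5. In shOpn3 it had 1024, 798, 829.9, 1163 and 923. The groups overlapped, with shControl replicates 1 and 5 standing above all other samples. The means were 1177 ± 257 and 947 ± 149 (SD, n = 5 each), and the log2 difference of -0.30 did not pass the test (SE 0.149, 95% interval -0.62 to 0.024, limma adjusted p = 0.189). Cldn5 was lower in 4 of 5 same-numbered comparisons and stood at 112% of the control in number 4. With the block it was still not called by limma (interval -0.55 to -0.049, adjusted p = 0.0708), whereas DESeq2 with the block called it (adjusted p = 0.0495).

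Ocln (ENSRNOG00000018297) encodes occludin, which spans the membrane at tight junctions. It had 894, 1130.5, 1123, 1051 and 966 normalized counts in shControl and 989, 1295, 1496, 1592 and 1018 in shOpn3 replicates 1 to 5. The shOpn3 samples of numbers 2, 3 and 4 lay above all controls, whereas those of numbers 1 and 5 lay within the control range. The means were 1033 ± 102 and 1278 ± 273 (SD, n = 5 each), with a log2 difference of 0.29 (SE 0.138, 95% interval -0.014 to 0.59, limma adjusted p = 0.177). Ocln was higher in 5 of 5 same-numbered comparisons, at 111%, 115%, 133%, 152% and 105% of the control, a direction that 18.7% of all genes tested shared in all 5. With the block the difference was called (interval 0.091 to 0.48, limma adjusted p = 0.0356), in a fit that called 15.1% of all genes higher and 15.2% lower.

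Among the other transporters, Slc2a1 (ENSRNOG00000007284) encodes GLUT1, through which glucose enters the brain. Its normalized counts were 4079, 2932, 2744, 2933 and 3928 in shControl and 2827, 2277, 2658, 3110.3 and 2998 in shOpn3 replicates 1 to 5. As for Cldn5, shControl replicates 1 and 5 stood above every other sample and the rest overlapped. The means were 3323 ± 628 and 2774 ± 327 (SD, n = 5 each), with a log2 difference of -0.25 (SE 0.127, 95% interval -0.53 to 0.028, limma adjusted p = 0.202). Slc2a1 was lower in 4 of 5 same-numbered comparisons, from 69.3% to 96.9% of the control, and at 106% in number 4. It was not called with the block (limma adjusted p = 0.0762).

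Slco1a4 (ENSRNOG00000047493) encodes an organic anion transporter of brain capillaries that carries steroid conjugates, bile acids and drugs. It had 4522, 6123, 6436, 6937 and 4707 normalized counts in shControl and 4767, 6558, 7624, 8046 and 5387 in shOpn3 replicates 1 to 5. The groups overlapped widely, yet each shOpn3 sample lay above its same-numbered control, at 105%, 107%, 118%, 116% and 114%. The means were 5745 ± 1074 and 6477 ± 1405 (SD, n = 5 each), with a log2 difference of 0.17 (SE 0.163, 95% interval -0.19 to 0.52, limma adjusted p = 0.525). With the block the standard error shrank to 0.0522 and the difference was called (interval 0.046 to 0.29, limma adjusted p = 0.0442). The edgeR test with the same block did not call Slco1a4 (log2 difference 0.16, adjusted p = 0.0611). Of its close relatives, Slco1a1 and Slco1a6 had at most 1.06 normalized counts in any sample and Slco1a2 at most 17.9, so few reads were assigned to them.

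The 2 receptors differed less between groups. Flt1 (ENSRNOG00000000940) encodes VEGF receptor 1, which binds VEGF tightly and limits its action on the signalling receptor Kdr. It had 3602, 4019, 3894, 3831 and 3230.3 normalized counts in shControl and 2921, 3744, 3615, 3701 and 3033 in shOpn3 replicates 1 to 5. The groups overlapped in a narrow range, with numbers 1 and 5 lowest in both. The means were 3715 ± 311 and 3403 ± 393 (SD, n = 5 each), with a log2 difference of -0.13 (SE 0.0929, 95% interval -0.33 to 0.071, limma adjusted p = 0.369). Flt1 was lower in 5 of 5 same-numbered comparisons, at 81.1% to 96.6% of the control, but was not called with the block (limma adjusted p = 0.110).

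Tek (ENSRNOG00000008587) encodes TIE2, the receptor of the angiopoietins. It had 2425, 3038, 3127, 2935 and 2377 normalized counts in shControl and 2211, 2894, 3169.9, 3571 and 2291 in shOpn3 replicates 1 to 5. Samples of numbers 1 and 5 were the lowest of both groups, and the groups overlapped throughout. The means were 2781 ± 353 and 2827 ± 579 (SD, n = 5 each), with a log2 difference of 0.0092 whose 95% interval ran from -0.29 to 0.31 (limma adjusted p = 0.973). With the block that interval was -0.15 to 0.17.

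Vwf (ENSRNOG00000019689) encodes von Willebrand factor, the clotting glycoprotein that endothelial cells store and that platelets also hold. It had 5715, 3874, 3951, 4062 and 5032 normalized counts in shControl and 4044, 2945, 4018, 5533 and 3818 in shOpn3 replicates 1 to 5. The same-numbered values moved both ways, from 70.8% of the control in number 1 to 136% in number 4. The means were 4527 ± 813 and 4072 ± 932 (SD, n = 5 each), with a log2 difference of -0.16 (SE 0.157, 95% interval -0.51 to 0.18, limma adjusted p = 0.512). The platelet genes Gp9 and Ppbp were at 0 in some samples. Pf4 and Itga2b, also platelet genes, were above 0 in every sample. Their log2 differences of -0.022 and 0.31 were not called by limma. The part of platelets in the Vwf level was not tested.

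For the 7 members that were not called, a missed threshold does not show equal levels. Their 95% intervals ran from -0.62 (Cldn5) to 0.59 (Ocln) on the log2 scale, which is 64.9% to 150.1% of the control. A fall as large as that of Mfsd2a lay outside the interval of each of them.

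**Figure D3:**
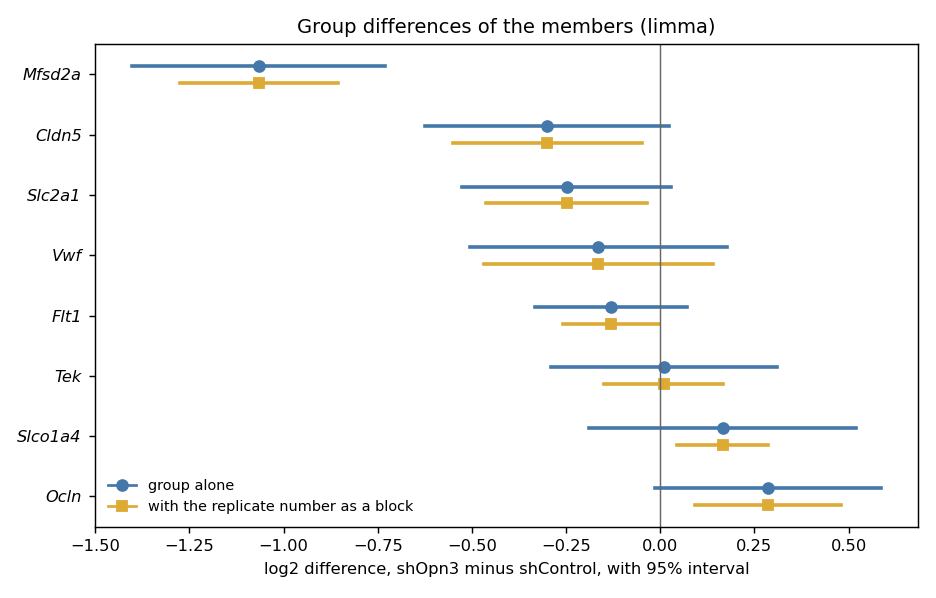
Log2 difference of each member, shOpn3 minus shControl, with its 95% interval from limma fits without (blue circles) and with (yellow squares) a block for the replicate number. The interval of Mfsd2a, -1.40 to -0.73, lies apart from those of the other members, and the block narrows the intervals of Slco1a4 and Tek the most.

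Within a group the members did not vary as 1 set. In shControl, replicates 1 and 5 were the 2 highest samples for Cldn5, Vwf, Slc2a1 and Mfsd2a and the 2 lowest samples for Flt1, Tek, Slco1a4 and Ocln. All 8 members thus separated these replicates from the other 3. Over all genes tested, replicates 1 and 5 were the 2 highest in 32.6% and the 2 lowest in 30.2%, so this order was common in the table. In shOpn3, replicates 1 and 5 were again the 2 lowest for Flt1, Tek, Slco1a4 and Ocln, as in 18.6% of all genes, but they were the 2 highest for 0 members, as against 18.3% of all genes.

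In shOpn3 replicate 4 was the highest sample for 6 of the 8 members, all but Mfsd2a and Flt1, while 26.1% of all genes were highest there. The shControl sample of the same number was highest for Slco1a4 alone. Summed endothelial identity genes were also highest in shOpn3 replicate 4, at 27931, with 24971 in the next sample. The leukocyte and microglial sum, at 40811, and the astrocyte sum, at 468158, were highest in that sample too, and their part in these levels was not tested. The standard error of the group difference was 1.18 to 3.12 times as large without the block as with it, and the gain was largest for Slco1a4.

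**Figure D4:**
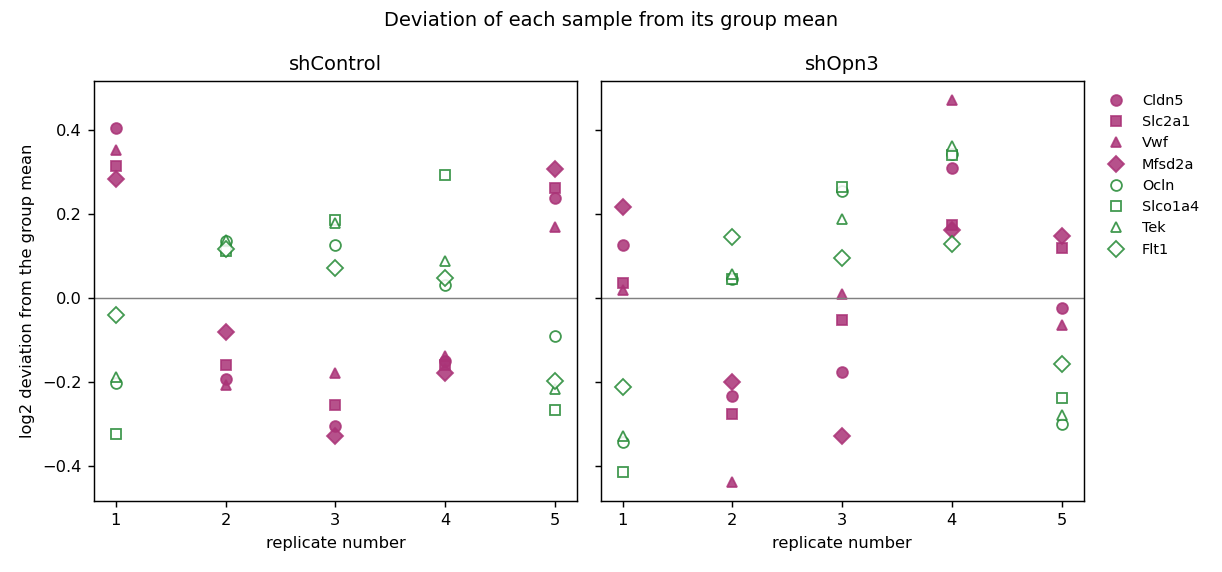
Log2 deviation of each sample from its group mean (vertical axis) by replicate number, for shControl (left) and shOpn3 (right). Filled purple symbols are Cldn5, Slc2a1, Vwf and Mfsd2a, open green symbols are Ocln, Slco1a4, Tek and Flt1, a division made after the values were seen. In shControl the purple genes are above 0 and the green genes below 0 in replicates 1 and 5, and the reverse holds in replicates 2, 3 and 4.

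Most other endothelial genes were not called, which also held for all genes tested, of which limma called 18.8%. The counts in this and the following lists stand beside 10.4% of all genes called higher and 8.48% called lower. With the block those shares were 15.1% and 15.2%. Of 22 endothelial identity genes tested, 2 rose, 1 fell and 19 did not pass the test, with a median log2 difference of 0.00015 that was -0.0082 with TMM scaling and -0.098 with samples weighted by quality. Cdh5, the cadherin of endothelial adherens junctions, had a log2 difference of 0.020 (SE 0.133). Cd34, a surface sialomucin, rose from 729 ± 89.4 to 1305 ± 391 normalized counts per sample (mean ± SD, n = 5 each; log2 difference 0.80, limma adjusted p = 0.00922). Fli1, an ETS transcription factor, rose by 0.65 (limma adjusted p = 0.0242). Icam2, an adhesion molecule of resting endothelium, fell by 0.52 on the log2 scale (limma adjusted p = 0.0215). The calls of Fli1 and Icam2 were each lost in 7 of 27 alternative fits. Fli1 is also made by microglia and other leukocytes, of whose 12 marker genes 11 rose and Lyve1 did not pass the test. Their summed level ran from 11005 to 14385 normalized counts in shControl and from 20052 to 40811 in shOpn3, with no marker at 0, and their part in the rises was not tested.

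Junction partners of the members changed in both directions. Of 14 tested, 3 fell, 1 rose and 10 did not pass the test, with a median of -0.12. With the block the claudin Cldn1 was called higher as well (log2 difference 0.51, limma adjusted p = 0.00944). Cgn, which encodes the tight junction adaptor cingulin, fell from 564 ± 43.6 to 342 ± 44.5 normalized counts per sample (mean ± SD, n = 5 each; log2 difference -0.72, SE 0.105, limma adjusted p = 0.000809). Jam3, a junctional adhesion molecule, fell by 0.76 on the log2 scale (limma adjusted p = 0.00182). Like the oligodendrocyte genes, Jam3 was highest in shControl replicates 1 and 5 and best kept in number 4, at 74.2% of the control against 46.8% to 63.2% in the others. Neither order was particular to these genes. Replicates 1 and 5 were the 2 highest controls in 32.6% of all genes, and number 4 had the highest ratio for all members but Slco1a4. The part of oligodendrocytes in the fall of Jam3 was not tested. Marveld2, which encodes tricellulin at the corners where 3 cells meet, rose by 0.71 (limma adjusted p = 0.00519). Tjp1, the scaffold protein ZO-1 that binds claudins and occludin, had a log2 difference of -0.022 (SE 0.0873).

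Other transporters and receptors of the barrier were mostly not called, as were most genes in the table (18.8% called). Of 18 tested, 2 rose, 0 fell and 16 did not pass the test, with a median of -0.10. With the block 2 were called lower, the amino acid transporter Slc7a1 (log2 difference -0.27, limma adjusted p = 0.0117) and the thyroid hormone transporter Slco1c1 (-0.22, limma adjusted p = 0.0171). Slco2b1, an organic anion transporter that microglia also make, rose by 0.68 (limma adjusted p = 0.00644). Slc16a1, which carries lactate and ketone bodies, rose from 5037 ± 502 to 6184 ± 591 normalized counts per sample (mean ± SD, n = 5 each; log2 difference 0.30, limma adjusted p = 0.0346), a call that was lost in 10 of 27 alternative fits.

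In the VEGF and angiopoietin pathway, to which the receptors Flt1 and Tek belong, 4 of 15 genes tested fell, 2 rose and 9 did not pass the test. With the block Apln, the ligand of the apelin receptor, was called lower as well (log2 difference -0.21, limma adjusted p = 0.0305). Vegfa, the main angiogenic ligand and one bound by Flt1, fell from 3496 ± 303 to 2068 ± 256 normalized counts per sample (mean ± SD, n = 5 each; log2 difference -0.76, SE 0.0934, limma adjusted p = 0.000385). Vegfb, whose receptor is Flt1, fell by 0.75 on the log2 scale (limma adjusted p = 0.000639). Angpt1, the activating ligand of Tek, fell by 0.56 (limma adjusted p = 0.00671), and Dll4, a Notch ligand of arterial and sprouting endothelium, by 0.81 (limma adjusted p = 0.00461). Vegfc and Nrp2, a lymphatic growth factor and a co-receptor for it, rose by 0.59 and 0.71. The receptor Kdr, which Flt1 restrains, had a log2 difference of -0.12 (SE 0.117), and Angpt2, which opposes Angpt1 at Tek, one of -0.061 (SE 0.145).

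WNT and norrin signalling, which keeps Cldn5, Slc2a1 and Mfsd2a expressed in brain endothelium, had 1 fall, 0 rises and 16 genes that did not pass the test among 17. The fall was that of Nkd1, a feedback inhibitor of the WNT pathway, from 959.6 ± 279.8 to 426 ± 78.9 normalized counts per sample (mean ± SD, n = 5 each; log2 difference -1.14, SE 0.190, limma adjusted p = 0.00166). Apcdd1, Lef1 and Axin2, which are induced by the same pathway, had log2 differences of -0.057, -0.081 and 0.072. In same-numbered samples Nkd1 stood at 34.2%, 41.9%, 49.3%, 68.1% and 39.1% of the control for numbers 1 to 5. Number 4 kept the most, as it did for Mfsd2a and for the oligodendrocyte genes Mbp (29.1%, 28.4%, 37.2%, 55.6% and 32.7%) and Mag (28.8%, 31.6%, 40.0%, 64.2% and 32.7%). All members but Slco1a4 were also highest relative to the control in number 4, so the order was not particular to oligodendrocyte genes. The part of oligodendrocytes in the fall of Nkd1 was not tested.

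Genes of endothelial activation and caveolae had 4 rises, 0 falls and 11 genes that did not pass the test among 15, with a median of 0.25. Icam1, an adhesion molecule that leukocytes bind, rose from 321 ± 62.4 to 657 ± 120.1 normalized counts per sample (mean ± SD, n = 5 each; log2 difference 1.03, SE 0.152, limma adjusted p = 0.000862), and Vcam1, of the same role, rose by 0.65 (limma adjusted p = 0.00124). Lcn2, which encodes the iron-scavenging protein lipocalin 2, rose by 2.05 and Ch25h, a cholesterol hydroxylase, by 0.84. These genes are also made by microglia or astrocytes, whose genes rose in these samples, and their source was not tested. Of the caveolar genes, Cavin2 had the largest difference, -0.34 (SE 0.118), which was not called (limma adjusted p = 0.0632) but was called lower with the block (limma adjusted p = 0.0309). Cav1 had a log2 difference of 0.064 (SE 0.100), Cavin1 of 0.086 (SE 0.114) and Cav2 of 0.17 (SE 0.132). Plvap, a protein of leaky vessels, had a log2 difference of 0.51 (SE 0.264, limma adjusted p = 0.211).

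Of 9 arterial and venous genes, 2 rose, 1 fell and 6 did not pass the test. With the block Hey1, a Notch target, was called higher as well (log2 difference 0.55, limma adjusted p = 0.0133). Unc5b, a netrin receptor of arterial endothelium that neurons and glia also make, fell from 3115 ± 1004 to 1587 ± 303 normalized counts per sample (mean ± SD, n = 5 each; limma adjusted p = 0.00647). Efnb2, the arterial ephrin, rose by 0.58 (limma adjusted p = 0.000809) and Nr2f2, a regulator of venous fate, by 0.42 (limma adjusted p = 0.00984). Unc5b and Mcam, a pericyte and smooth muscle gene, were also best kept in number 4, at 73.0% and 78.0% of the control. The same number had the highest ratio for the oligodendrocyte genes, whose part was not tested, and for all members but Slco1a4.

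The cells around the endothelium were checked with further markers. Of 16 pericyte and smooth muscle genes, 15 had a log2 difference below 0. Their median was -0.17, beside -0.019 over all genes tested, for which no share below 0 is given. Without the block only Mcam was called, falling by 0.79 (limma adjusted p = 0.00147). With the block Notch3 was called lower as well (log2 difference -0.33, limma adjusted p = 0.0398). Their summed level was 29100 to 37487 normalized counts in shControl and 22536 to 32271 in shOpn3, with overlap and no marker at 0. Of 6 perivascular fibroblast genes none was called, with 0 at an unadjusted p under 0.05, and with 0 called by edgeR and 0 by DESeq2. Red cell and platelet genes ran from 36755 to 104804 in shControl and from 46789 to 86408 in shOpn3, with 0 of 7 called by limma, edgeR or DESeq2 and 0 at an unadjusted p under 0.05 in limma. Choroid plexus, whose cells also make tight junctions and transporters, was checked as well: its 6 markers summed to at most 3145 normalized counts, in shControl replicate 5, and Otx2 was at 0 throughout. Of 5 choroid plexus genes tested 0 were called by limma without the block, with 1 at an unadjusted p under 0.05. With the block limma called 1 lower, and edgeR and DESeq2 without the block called 1 each. Of 8 astrocyte genes 4 rose, among them Aqp4, the water channel of the endfeet on capillaries, from 83949 ± 6489.9 to 115292 ± 15992 (SD, n = 5 each; log2 difference 0.45, limma adjusted p = 0.0155).

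**Figure D5:**
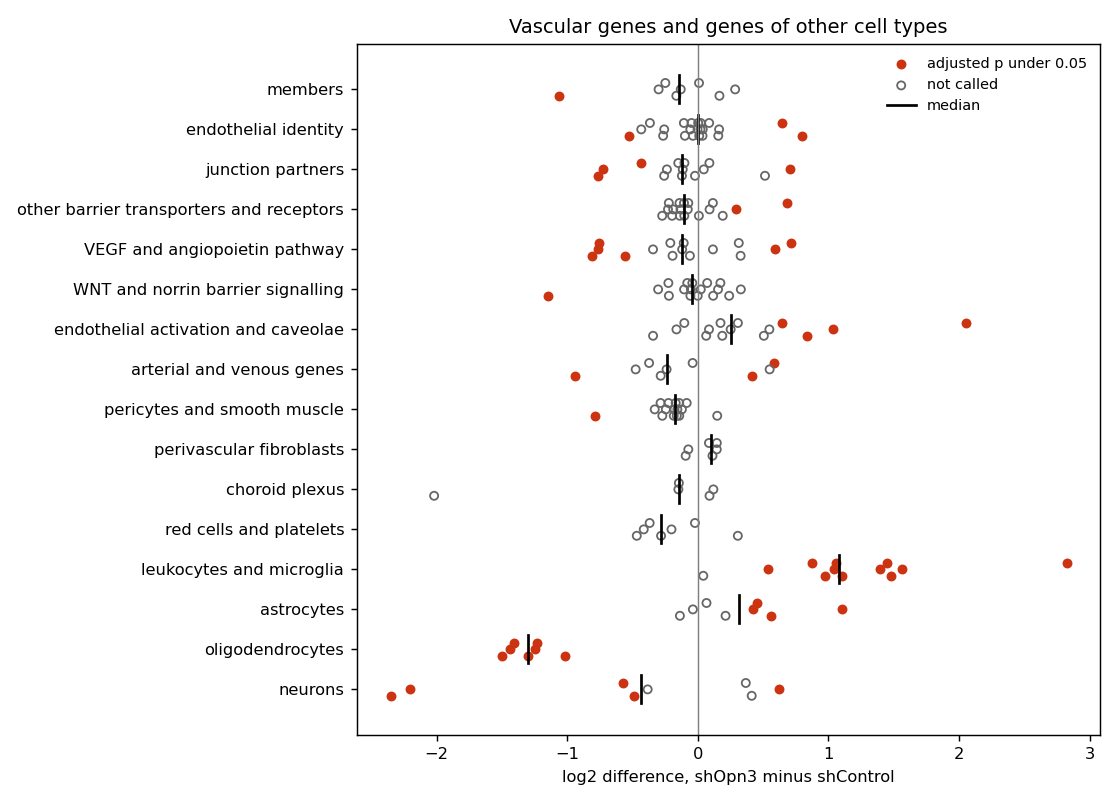
Log2 difference, shOpn3 minus shControl, of each tested gene (horizontal axis) in the members and in 15 lists of vascular genes and genes of other cell types. Filled red points have a limma adjusted p under 0.05, open points do not, and black bars are the list medians. The medians of the vascular lists lie between -0.24 and 0.25, against 1.08 for leukocytes and microglia and -1.30 for oligodendrocytes.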

How the data were processed

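Total RNA of punched supraoptic nuclei, as bulk tissue with 1 nucleus per sample, was sequenced. The library kit, its strand and the annotation were not given in the sources used here. Per the submitters' processing notes, the tools were FastQC, STAR, featureCounts and DESeq2. The genome build was not given there either. The authors deposited 1 table with a signal per gene and sample, namely counts divided by a size factor. It also held the authors' deposited log2 fold changes with standard errors, Wald scores and p-values. Every positive value was a whole multiple of the sample's smallest (tolerance 0.001), so that 100% of values gave whole reads. The edgeR (4.0.16) count test on these reads, run as an alternative, called 3025 genes.

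Values were compared as log2(normalized count + 1) with limma (3.58.1, R 4.3.3; trend) on the 15597 genes with a mean of at least 10, two-sided, with Benjamini-Hochberg adjustment and a threshold of 0.05. Log2 differences understate the change of low genes. limma was the main test because the deposited values are normalized. DESeq2 (1.42.0) was a further alternative.

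Same-numbered samples deviated together from their group means across genes (r from 0.12 to 0.44 in all 5 pairs). Samples of other numbers had r from -0.45 to 0.36, with a median of -0.21, so the ranges overlapped. The shControl sample of number 4 had a higher r with shOpn3 replicates 2 and 3 (0.24 each) than with shOpn3 replicate 4 (0.12). The numbers were taken as pairs on these values and because each rat gave both nuclei per the labels' protocols. This remains an assumption, least borne out for number 4. Without the block, p-values measure the spread within the groups and treat the 10 samples as independent, although the 5 rats each gave 2 of them. With the block, p-values measure the spread of the differences between same-numbered samples.

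Named genes were all members found, Opn3, near copies, and from each list up to 3 called genes with the largest differences. Others named for context were chosen after their values were seen. The members and lists were chosen with earlier results of these data known. No gene length was used, so levels are not compared between genes.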

Additional observations from a re-analysis of the deposited data

How the results depend on the processing

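In each of 27 alternative fits Mfsd2a was called lower, by log2 differences between -1.15 and -0.96 and with no adjusted p above 0.00623. The other 7 members took 189 values in these fits. Of these, 176 kept direction and side of the threshold, 6 gained a call and 7 changed sign, all 7 for Tek, whose difference was close to 0. Tek was at -0.12 with array quality weights and from -0.081 to 0.092 when samples or pairs were left out. The gained calls were those of Ocln in the 3 fits with the replicate block, of Slco1a4 with the limma block, of Cldn5 with the DESeq2 block (adjusted p = 0.0495) and of Flt1 with quality weights (adjusted p = 0.0415). The number of members called was 1 without the block. It was 3 with the replicate block in limma, 2 in edgeR and 3 in DESeq2 with the block, and 2 with quality weights. It stayed at 1 whichever sample or pair was left out. The count of all genes called was 2940. It was 4726 with the replicate block in limma, 4777 in edgeR and 4555 in DESeq2 with the block, and 5062 with quality weights. Leaving out samples or pairs gave from 1603 genes (without both samples of number 3) to 3057, with 1878 without number 2. The cause of these changes in count was not tested. The median of the members stayed between -0.23 and -0.084. The block fits in edgeR and DESeq2 and the leaving out of pairs were chosen after seeing the data. Of 837 values that 31 named genes of the other lists took, 803 kept their call, 34 lost it (10 of them for Slc16a1, 7 each for Fli1 and Icam2, 3 for Aqp4) and 0 changed sign. The members had at least 221 normalized counts in each sample, and the effect of depth on their results was not tested.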

Other observations

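Among 18 sets of 5 values (8 members and Opn3, each by group), 0 held a sample far from its neighbours, where 0.9 would by chance at 1 in 20.

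Ttr, a choroid plexus transcript, had a log2 difference of -2.02 (SE 0.778) that did not pass the limma test (adjusted p = 0.0939). With the block Ttr was called lower (limma adjusted p = 0.0186). The haemoglobin genes Hba-a1, Hba-a2 and Hba-a3 had log2 differences of -0.47, -0.41 and -0.37, none of them called by limma.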
